A study of Mus musculus with 15 samples.

Results

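Mouse heads that had lost both copies of Twist1 in the Mesp1-Cre lineage were compared with heads that kept 1 copy there, where both sets of heads carried the Cre. The comparison used 8 of the 15 heads of the study, chosen by their genotype labels alone: 4 CM-CKO heads (Twist1 flox/del; Mesp1 Cre/+) and 4 CM-Het heads (Twist1 flox/+; Mesp1 Cre/+). The 7 heads without Cre were 4 Het heads (Twist1 flox/del; Mesp1 +/+) and 3 Control heads (Twist1 flox/+; Mesp1 +/+), and they serve to set the same exchange of germline alleles without Cre beside it. All heads were taken at embryonic day 9.5 (18 to 20 somites) from a mixed C57Bl/6 x 129 x BALB/c background, and RNA of each was read on an Illumina bead array of 1 colour.

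Cre was placed in 1 copy of Mesp1, so every head of this comparison had also lost 1 copy of that gene. Mesp1 is active in early mesoderm, and its lineage includes cranial mesoderm, the heart and vascular endothelium. The 2 genotypes differed by a deleted against a wild-type Twist1 allele, which every cell of the embryo inherited. By design, cells of the Cre lineage thus had no copy in CM-CKO and 1 in CM-Het, and all other cells had 1 in CM-CKO and 2 in CM-Het. An effect of the lost mesodermal copy and an effect of the copy missing from all other tissues, neural crest included, cannot be told apart within this comparison. How far Cre recombined the floxed allele was not measured by the files used here.

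TWIST1 is a basic helix-loop-helix transcription factor that binds E-box DNA as a dimer with E-proteins or with itself. Id proteins take up E-proteins and so compete with it. In the head it acts in mesenchyme of both mesodermal and neural crest origin, and mouse embryos without it fail to close the cranial neural tube and die at mid-gestation with defects of head mesenchyme and vessels. In people, loss of a single copy causes Saethre-Chotzen syndrome, in which skull sutures fuse early.

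The arrays of the 8 heads each detected between 19204 and 19793 probes, and pairs of them correlated at r = 0.967 to 0.994 across genes. Markers of cranial mesenchyme (Prrx1, Foxc2, Pdgfra, Alx1), brain (Sox2, Otx2, En2), neural crest (Sox10, Tfap2a), epithelium (Cdh1, Krt8), endothelium (Pecam1, Cdh5) and red blood cells (Hbb-bh1, Hba-x, Alas2) were detected on all 8 arrays. Pax6 (brain), Foxd3 (neural crest) and Epcam (epithelium) did not pass the detection filter, and Kdr (endothelium) was detected on 2 arrays of each group. Tbx6 and Uncx, which mark trunk mesoderm, were also detected on all 8, at means of 5.08 and 5.31 in CM-CKO and 4.96 and 5.17 in CM-Het, whereas Hoxc8 was detected on 2 and 1 arrays and Hoxb9 did not pass. Of the heart markers Nkx2-5 was detected on 2 CM-CKO and 3 CM-Het arrays, and Myl7 and Tnnt2 did not pass. The labels do not say whether heads came from separate litters or whether RNA was pooled, so p-values measure the spread between these samples. The Y-linked gene Eif2s3y was high in CM-CKO 1, 3 and 4 and in CM-Het 1 and 2 and low in the other 3 heads, so both genotypes held both sexes. Of the 4 CM-CKO arrays, 3 lay on slide 1, which held no CM-Het array, and CM-CKO 4 shared slide 3 with CM-Het 3 and 4, so slide and genotype were largely confounded.

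Twist1 (chromosome 12, 33957671 to 33959831, GRCm38.p6) was lower in every CM-CKO head. Its levels, in log2 normalized signal as for all levels below, were 9.23, 8.94, 9.13 and 9.34 in CM-CKO 1 to 4 and 10.04, 9.76, 10.01 and 9.84 in CM-Het 1 to 4. The groups did not overlap, and the CM-CKO mean was 59.4% of the CM-Het mean on the linear scale. The difference of −0.75 (SE 0.14) had an adjusted p of 0.0034 in the fit across all genes and an exact 2-sided permutation p of 0.0286, the smallest that 70 splits of 8 heads can give. With slide as a fixed block it was −0.52 (adjusted p = 0.0510), and within slide 3, which holds 1 CM-CKO head and so gives values without a test, −0.59.

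The level of Twist1 followed the germline allele and was not lower in heads with Cre. It was 9.16 ± 0.17 (SD, n = 4) in CM-CKO against 8.97 ± 0.32 (n = 4) in Het, and 9.91 ± 0.14 (n = 4) in CM-Het against 9.92 ± 0.04 (n = 3) in Control. CM-CKO minus Het was 0.19 (adjusted p = 0.425) and CM-Het minus Control −0.01 (adjusted p = 1.00), and each of these pairs differs by Cre. The Twist1 signal therefore does not show recombination by Cre, and whether its probe lies in the floxed segment is not known here. Mesp1 and its neighbour Mesp2 were detected on 0 of 15 arrays, so the Cre-carrying locus could not be checked either.

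**Figure D1:**
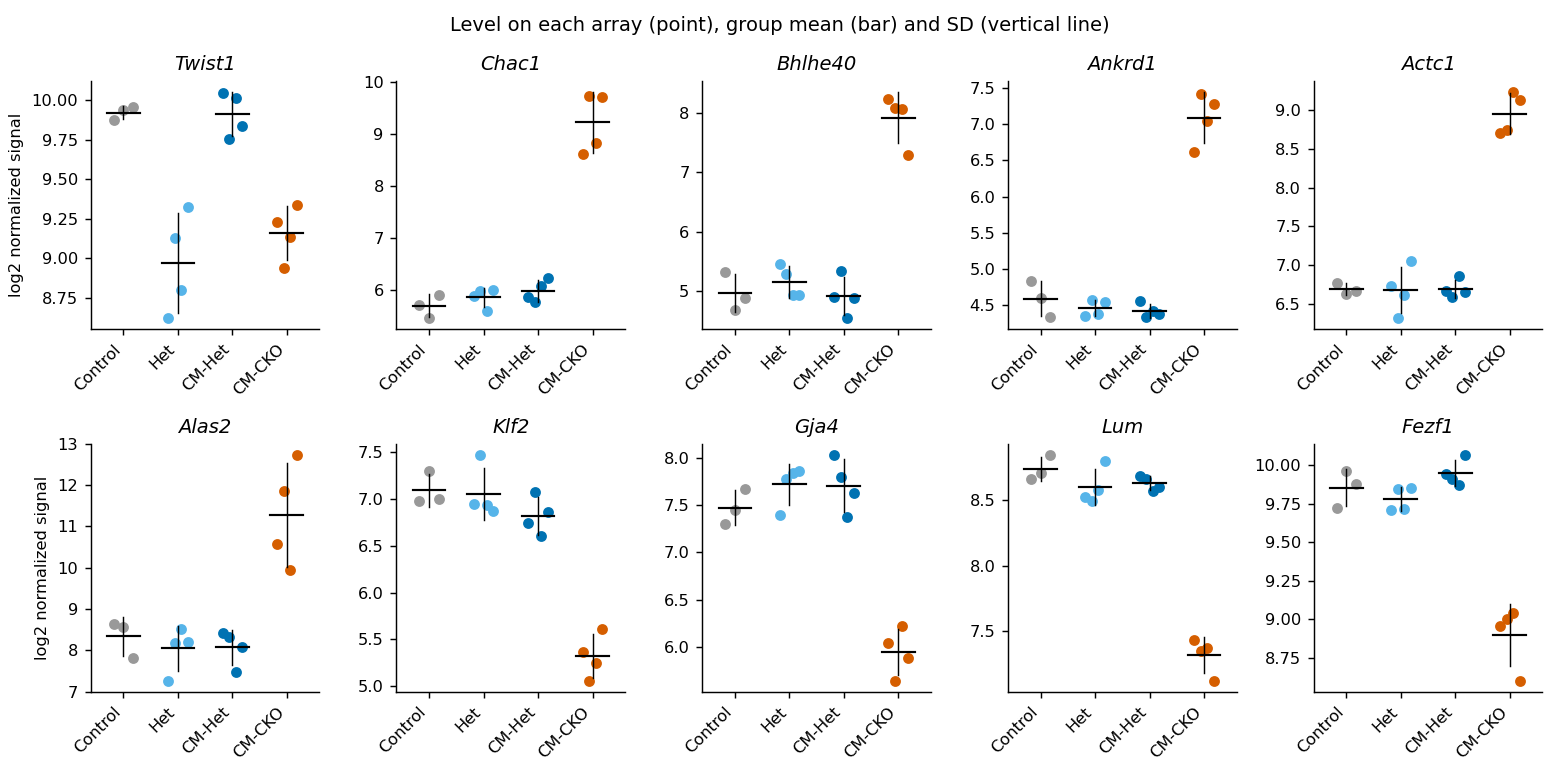
Log2 normalized signal of 10 genes on each array (points) for Control, Het, CM-Het and CM-CKO, with the group mean (bar) and SD (vertical line). For all 10 genes the 4 CM-CKO heads lie apart from the 4 CM-Het heads, and Twist1 is low in both groups with the deleted allele.

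Among partners and relatives of TWIST1, apart from Twist1 itself, 3 of 8 measured genes were lower and 0 were higher, with a median difference of −0.20 against −0.03 over all genes. Tcf3, an E-protein gene, read 7.30, 7.28, 7.16 and 7.24 in CM-CKO and 7.85, 7.87, 7.80 and 8.02 in CM-Het, a log2 difference of −0.64 (SE 0.13, adjusted p = 0.00683) with no overlap. Id2, an inhibitor of E-protein dimers, read 9.28, 9.41, 9.88 and 9.01 in CM-CKO and 10.18, 10.16, 10.40 and 9.93 in CM-Het, a log2 difference of −0.77 (SE 0.16, adjusted p = 0.0077). Its other 2 probes differed by 0.17 and 0.23 in the opposite direction, and no call was left on the mean of the 3. Id3 fell by 0.46 (adjusted p = 0.044) with overlapping heads and with no call in 19 of 29 alternatives tested. Twist2, the closest relative of Twist1, differed by −0.19 (adjusted p = 0.394), Id1 by −0.21 (adjusted p = 0.297) and the E-protein gene Tcf4 by −0.11 (adjusted p = 0.678). With slide as a fixed block Id2 was the 1 gene of the 8 called lower, at −0.94, while Tcf3 was −0.42 and Id3 −0.52 (adjusted p = 0.115 and 0.113).

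Across the genome, 1152 of 11625 genes changed (9.91%) at a Benjamini-Hochberg adjusted p under 0.05. They comprised 615 higher genes (5.29%) and 537 lower genes (4.62%) in CM-CKO. These 3 shares are the background for every count of list members below. The lists were chosen with earlier results of these data known. An excess of changed members over these shares is therefore description and not evidence. Scaling the arrays by their medians instead of by quantiles gave 885 changed genes, of which 39.0% were higher, against 53.4% in the fit reported here. Large changes were mostly rises: 192 genes were at least 2-fold higher and 18 at least 2-fold lower, and the median size among changed genes was 0.58. The heads of the 2 genotypes did not overlap for 1019 of the 1152 genes (522 of the 615 higher and 497 of the 537 lower), against 17.5% of all genes tested. Call and separation rest on the same heads, so separate heads of called genes, here and below, are description and not further evidence. With slide as a fixed block 1071 genes changed, among them 598 of the 1152, and all 1152 kept their direction. Of the 107 changed genes named by rule, 25 were not called with that block: Twist1, Pdgfrb, Tcf3, Col6a1, Mfap4, Lamb2, Tgfbi, Crmp1, Alpl, Sfrp1, Id3, Klhl25, Dnajc3, Hey1, Ndufa2, Etv5, Laptm5, Itga3, Wnt3a, Homer2, Fgf15, Sostdc1, Hbb-b2, Irs2 and Hoxb2. With slide as a random block 9 were not: Mfap4, Lamb2, Crmp1, Alpl, Id3, Dnajc3, Laptm5, Wnt3a and Hbb-b2. Within slide 3, where CM-CKO 4 was the only knockout head, 1147 of the 1152 had the same direction, with no test. The heads of slide 3 also entered the calls, so this agreement is no separate check on slide. They differed by sex as well, because Eif2s3y was high in CM-CKO 4 and low in CM-Het 3 and 4. Leaving out 1 head moved the count most for CM-CKO 2 (550 genes), and leaving out CM-Het 1, 2, 3 or 4 gave 677, 684, 751 or 730.

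**Figure D2:**
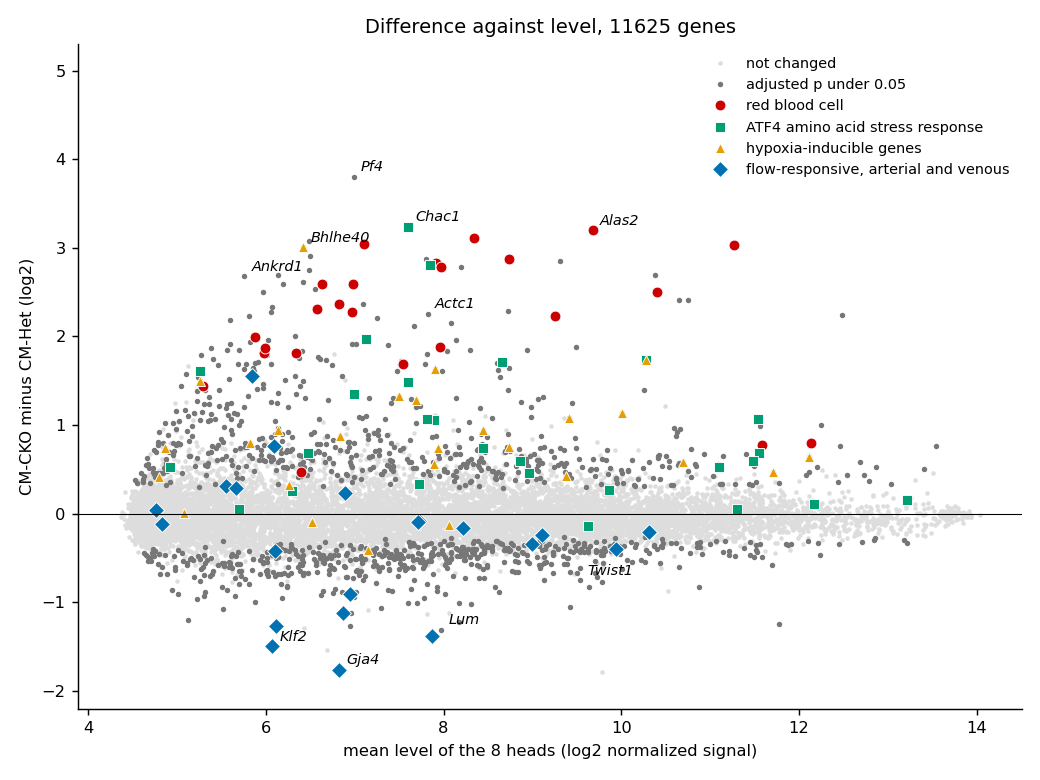
CM-CKO minus CM-Het difference (log2) of all 11625 genes against their mean level in the 8 heads (log2 normalized signal), with changed genes in dark grey and 4 gene lists in colour. Red blood cell, ATF4 and hypoxia genes lie mostly above 0, and the lowest points include Gja4 and Klf2 of the flow and arterial list.

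Genes of red blood cells were higher in CM-CKO. Of 24 measured members of this list 23 rose and 0 fell, with a median of 2.29 log2. In 22 of the 23 every CM-CKO head was above every CM-Het head, as in 522 of the 615 higher genes and 6.91% of all genes. Slc4a1, the anion exchanger of the red cell membrane, read 12.32, 13.53, 11.68 and 13.62 in CM-CKO and 10.16, 9.87, 9.11 and 9.90 in CM-Het, so that it was 8.17-fold higher, a log2 difference of 3.03 (SE 0.35, adjusted p = 9.43e-05). Alas2, the first enzyme of heme synthesis in red cells, read 10.57, 11.86, 9.96 and 12.73 against 8.43, 8.33, 7.48 and 8.08 and was 9.19-fold higher (adjusted p = 0.00062). CM-CKO 4 and 2 had the highest levels of both genes and CM-CKO 3 the lowest, still above all CM-Het heads. The red cell skeleton gene Sptb rose by 2.87 (adjusted p = 0.000325), although its second, dimmer probe differed by −0.18, and Mgst3, a glutathione transferase, rose by 2.50 (adjusted p = 0.000682). In bulk RNA of whole heads, more red cells and more of these RNAs per cell cannot be told apart.

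Further genes among the 12 largest rises included some of the red cell surface and skeleton. The blood group gene Kel rose by 3.04, the amino acid transporter gene Slc38a5 by 3.11, and Tmod1, which caps actin filaments of the red cell skeleton, by 2.91. Ncf4, a subunit of the phagocyte NADPH oxidase, rose by 3.07, the ISG15-activating enzyme gene Uba7 by 2.88 and the transcriptional cofactor gene Cited4 by 2.85. All 6 had separate heads and adjusted p between 0.000547 and 0.00122. The call and the separation were both conditions for entry to the 12 largest rises, so they are no further evidence. Chosen after their values were seen, the red cell regulators Klf1, Gata1 and Epor rose by 2.78, 1.44 and 2.37, and Gata1 was below background in all CM-Het heads (at least 2.45-fold higher).

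The brightest embryonic globin genes were not called. Hbb-y read 13.70, 13.94, 13.72 and 13.87 in CM-CKO and 13.84, 13.80, 13.45 and 13.78 in CM-Het (difference 0.09, adjusted p = 0.632), and Hbb-bh1 differed by −0.02 (adjusted p = 0.912). Both lay close to the highest value on any array, 14.05, and the dimmer probe of Hbb-bh1 differed by 1.74. Of 5 globin genes 2 rose: Hba-a1 by 0.76 (adjusted p = 0.0292) and Hbb-b2 by 0.80 (adjusted p = 0.0436), the latter detected on 1 of 4 CM-Het arrays. The call of Hbb-b2 was lost in 22 of 29 alternatives, among them no background correction, median scaling and each way of treating slide, and that of Hba-a1 in 9.

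Platelet genes rose as well, in 11 of 14 members with a median of 1.40, 8 of the 11 with every CM-CKO head above every CM-Het head. Pf4, a chemokine of platelet granules, had the largest rise of all genes. It read 9.27, 9.46, 7.46 and 9.35 in CM-CKO and 4.55, 4.86, 5.61 and 5.33 in CM-Het, 13.9-fold higher, a log2 difference of 3.80 (SE 0.39, adjusted p = 2.92e-05). CM-CKO 3 was again lowest, at 7.46 against 9.27 to 9.46 in the other knockout heads. Tubb1, the platelet form of beta-tubulin, rose by 2.54 (adjusted p = 0.000428), and Gp5 and Gp9, subunits of the platelet receptor for von Willebrand factor, rose by 1.69 and 1.40 (adjusted p = 0.000223 and 0.00166). The other 2 Tubb1 probes differed by 0.17 and 0.31. Thbs1 and Clec1b, the brightest members without a call, differed by 0.41 and −0.14. With the red blood cell mean as a covariate 0 of the 14 were called, at a median of 0.27. That mean was 0.90 to 3.48 in CM-CKO and −0.26 to 0.14 in CM-Het, so it largely follows genotype. Calls lost with this covariate, here and below, therefore cannot tell red cell content from genotype. Of 5 macrophage genes only Laptm5 was called (difference 0.42, adjusted p = 0.0427), with overlapping heads and with no call in 19 of 29 alternatives.

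Several genes of arteries and of endothelium under flow were lower in CM-CKO. Of 21 measured members of this list 7 fell and 2 rose, with a median of −0.20. Gja4, a connexin gene of arterial endothelium, read 6.04, 5.65, 6.22 and 5.89 in CM-CKO and 8.03, 7.80, 7.37 and 7.62 in CM-Het. Gja4 had the largest fall among changed genes, 3.38-fold lower in CM-CKO with a log2 difference of −1.76 (SE 0.16, adjusted p = 4.9e-06), and its relative Gja5, with 6.01, 5.22, 5.40 and 5.32 against 6.70, 6.51, 6.89 and 6.90, was 2.4-fold lower (adjusted p = 9.04e-05). Klf2, a transcription factor induced by blood flow, read 5.37, 5.06, 5.24 and 5.62 against 6.74, 7.08, 6.60 and 6.86, a log2 difference of −1.50 (SE 0.15, adjusted p = 2.43e-05). None of the 3 genes had overlapping heads, and all CM-CKO heads lay below all CM-Het heads in 10.6% of all genes.

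The apelin receptor gene Aplnr differed by −1.38 (adjusted p = 8.78e-05) and the endothelial nitric oxide synthase gene Nos3 by −1.12 (adjusted p = 0.000547), and both were lower in 4 of 4 CM-CKO heads than in any CM-Het head. Ephb4, a receptor of veins, and the lymphatic growth factor gene Vegfc, the brightest members without a call, differed by −0.20 and −0.24 (adjusted p = 0.442 and 0.191). The 2 members that rose, chosen after their values were seen, were Angpt2 (0.77) and Esm1 (1.55), genes of sprouting endothelium. List means of the CM-CKO heads were −0.17, −0.45, −0.06 and −0.61 relative to the CM-Het mean, in the reverse order of their red blood cell means. With the red blood cell mean as a covariate 2 members were called lower and 3 higher. The list median was then 0.13. Gja4 (−1.48) and Klf2 (−1.72) were called there, and Aplnr, Gja5 and Nos3 were not, at −1.07, −0.92 and −0.98 (adjusted p = 0.0671, 0.0768 and 0.107).

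Of 26 general endothelial genes 11 fell and 3 rose, with a median of −0.39. Sox7, a transcription factor of endothelium, read 7.16, 7.05, 7.39 and 7.17 in CM-CKO and 8.09, 8.16, 8.13 and 8.44 in CM-Het, a log2 difference of −1.01 (SE 0.14, adjusted p = 0.000454), with 1 of its 3 probes 0.32 in the other direction. Emcn, a sialomucin of the vessel lining, fell by 0.82, Tek, the angiopoietin receptor, by 0.72, and Ramp2, a partner of the adrenomedullin receptor, by 0.52, with adjusted p between 0.000731 and 0.00127 and no overlap of heads. Pecam1, the usual marker of endothelium, read 6.70 in CM-CKO and 6.77 in CM-Het, and Kdr was detected on only 2 arrays of each group. The 3 members that rose, chosen after their values were seen, were Tal1, Lyl1 and Robo4, by 1.68, 1.30 and 0.43, of which Tal1 and Lyl1 are also transcription factors of blood progenitors. Mean differences from CM-Het were −0.16, −0.25, −0.24 and −0.21 in CM-CKO 1 to 4, which did not follow the order of the red cell genes, and with the red blood cell mean as a covariate 0 members were called at a median of −0.29.

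Genes of cells that wrap vessels moved both ways. In the pericyte list 35.7% of 14 genes changed, against 9.91% of all genes. Of these, 3 fell (Cygb by 0.97, Pdgfra by 0.56 and Pdgfrb by 0.67). The 2 that rose were Pdgfb (0.64) and, named after its value was seen, Cspg4 (1.47). PDGF-B from endothelium recruits pericytes through the receptor encoded by Pdgfrb, which read 6.69, 6.01, 5.88 and 5.97 in CM-CKO and 6.95, 6.66, 6.65 and 6.96 in CM-Het with overlapping heads (adjusted p = 0.0223). Pdgfra, the related receptor of mesenchyme, did not overlap, with 9.004, 8.67, 8.63 and 8.44 against 9.16, 9.24, 9.24 and 9.34 (adjusted p = 0.00418). Cxcl12, which attracts vessel cells, differed by −0.26 (adjusted p = 0.115).

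Smooth muscle genes driven by serum response factor rose in 6 of 19 members and fell in 0, with a median of 0.21. Tagln read 6.04, 6.39, 6.49 and 6.46 in CM-CKO and 4.61, 4.83, 4.97 and 4.85 in CM-Het, a log2 difference of 1.53 (SE 0.12, adjusted p = 1.02e-06), and Acta2, smooth muscle actin, read 11.001, 10.98, 11.11 and 11.46 against 9.9995, 10.10, 10.57 and 10.05 (adjusted p = 0.00275). Myl9 and Tpm1, genes of the contractile apparatus, rose by 0.76 and 0.47 (adjusted p = 0.00469 and 0.00679). Actb and Tpm4, bright genes of the general cytoskeleton, differed by −0.06 and −0.14, but of the other 4 Actb probes 2 differed by 0.95 and 0.84. Actc1, the alpha-actin of embryonic heart and skeletal muscle, was the sole gene called among 7 measured heart muscle genes: it read 8.70, 8.75, 9.23 and 9.12 against 6.66, 6.59, 6.86 and 6.66, 4.77-fold higher (adjusted p = 2.44e-07), and its other probe differed by 0.97. Mef2c and Actn2, also of muscle, differed by −0.20 and 0.08. With slide as a fixed block 5 of the 19 smooth muscle genes were called higher. The median over all 19 was 0.03 there and −0.03 in slide 3 alone, while Tagln was 1.47 and 1.54 and Acta2 1.16 and 1.16. Adding the red blood cell mean as a covariate left 2 called, where the list median was 0.41, Acta2 0.80 and Myl9 0.81.

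Genes induced by low oxygen were higher in CM-CKO, 18 of 26 members, with a median of 0.75 and no overlap of heads for any of the 18. The transcriptional repressor Bhlhe40 read 8.24, 8.09, 8.07 and 7.29 in CM-CKO and 4.89, 5.33, 4.55 and 4.88 in CM-Het, 8.05-fold higher, a log2 difference of 3.01 (SE 0.21, adjusted p = 5.68e-07). Ankrd37 read 8.50, 8.97, 8.79 and 8.60 against 7.37, 6.98, 7.15 and 6.85, 3.09-fold higher (adjusted p = 2.4e-06), and the collagen prolyl hydroxylase gene P4ha2 rose by 0.94 (adjusted p = 2.39e-05). Other members, chosen after their values were seen, were the oxygen sensors Egln3 (1.29) and Egln1 (0.88), the vessel growth factor Vegfa (1.08), the mitochondrial gatekeeper Pdk1 (1.13) and the vasodilator peptide gene Adm (1.503), which was below background in CM-Het (at least 2.45-fold higher). Among members without a call, the carbonic anhydrase gene Car12 differed by 0.75 (adjusted p = 0.119) and Angptl4 by −0.13. List means of the 4 knockout heads were 0.79, 0.96, 0.84 and 0.68, with an SD of 0.115 against 0.036 in CM-Het. With the red blood cell mean as a covariate 10 of the 26 were called higher, at a median of 0.78.

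Glucose uptake and glycolysis genes rose in 10 of 19 members and fell in 0, with a median of 0.36. The glucose transporter Slc2a1 read 13.24, 13.09, 13.02 and 13.18 in CM-CKO and 12.75, 12.45, 12.63 and 12.59 in CM-Het (difference 0.53, adjusted p = 0.00413), and the aldolase Aldoa 12.86, 12.97, 12.96 and 13.14 against 12.48, 12.34, 12.41 and 12.37 (difference 0.58, adjusted p = 0.00203). Both were separate although each change was under 2-fold. Aldoc and the phosphofructokinase Pfkp rose by 0.90 and 0.92 (adjusted p = 0.000229 and 0.00157). Ldha and Pkm, later enzymes of the path and 2 of the brightest genes, differed by −0.09 and −0.02, and the other Pkm probe by 0.52. With the red blood cell mean as a covariate 1 of the 19 was called, while the list median was 0.42. Ppp1r3c, which brings a phosphatase to glycogen, was outside the lists and read 8.55, 8.52, 8.44 and 8.04 against 6.65, 6.69, 6.58 and 6.72, 3.32-fold higher (adjusted p = 1.95e-07). Of 22 respiratory chain genes, 1 rose (Atp5a1, 0.74) and 1 fell (Ndufa2, −0.34), and a second probe of Atp5a1 differed by −0.04.

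Targets of ATF4, the transcription factor that answers amino acid shortage and blocked translation, were higher in 20 of 27 members and lower in 0, with a median of 0.68 and separate heads for all 20. Chac1, which degrades glutathione, read 8.62, 9.73, 8.83 and 9.70 in CM-CKO and 5.85, 5.76, 6.08 and 6.23 in CM-Het, 9.44-fold higher, a log2 difference of 3.24 (SE 0.22, adjusted p = 3.24e-07). Stc2, a secreted glycoprotein, read 8.18, 8.11, 8.03 and 8.15 against 6.03, 6.29, 6.23 and 6.03 (3.93-fold, adjusted p = 1.51e-06), and the lipoprotein receptor Vldlr 9.57, 9.72, 9.53 and 9.23 against 7.96, 7.83, 7.79 and 7.61 (3.28-fold, adjusted p = 1.33e-06). Ddit4, an inhibitor of the growth kinase complex mTORC1 that also belongs to the low-oxygen list, rose by 1.74 (adjusted p = 4.68e-06). Heads were separate for all 4 genes.

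Members chosen after their values were seen included the pseudokinase Trib3 (2.81), asparagine synthetase Asns (1.07), the transcription factor Ddit3 (1.35) and Atf4 itself (0.53). The glycyl-tRNA synthetase Gars and the serine synthesis enzyme Psat1, the brightest members without a call, differed by 0.16 and 0.11 (adjusted p = 0.194 and 0.49). Chaperones of the endoplasmic reticulum, which respond to the parallel branches of the unfolded protein response, were not called higher: 0 of 15 rose and 1 was lower (Dnajc3, −0.44, with no call in 18 of 29 alternatives), and Hsp90b1 differed by 0.09. The list means of ATF4 targets were 0.83, 1.10, 0.58 and 1.19 in CM-CKO 1 to 4, in the same order as the red blood cell means of 1.58, 2.76, 0.90 and 3.48. With the red blood cell mean as a covariate 4 of the 27 were called higher at a median of 0.26, and with median scaling 12 were called at a median of 0.56. Whether red cells contribute to these levels was not tested.

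Promoter sequences of 4 genes that rose in every CM-CKO head, picked by hand and each holding a match, are printed as examples. They show the letters that the regulators of these lists are known to bind. They come from RefSeq (GRCm38.p6), run 5′ to 3′ on the gene's strand from 250 bases before to 50 bases after the gene's start, and the motif matches are in capitals. In Chac1 the capitals mark the composite ATF4-C/EBP element TGATGNAA, read here on the opposite strand, at position −193 from the start. In Ankrd37 and Ppp1r3c they mark ACGTG, the core of the hypoxia response element, which overlaps with its reverse complement in Ppp1r3c. In Ankrd1, described below, they mark GGAATG, bound by TEAD factors, at positions −210 and −123.
Chac1 promoter (chr2:119350992-119351291, + strand): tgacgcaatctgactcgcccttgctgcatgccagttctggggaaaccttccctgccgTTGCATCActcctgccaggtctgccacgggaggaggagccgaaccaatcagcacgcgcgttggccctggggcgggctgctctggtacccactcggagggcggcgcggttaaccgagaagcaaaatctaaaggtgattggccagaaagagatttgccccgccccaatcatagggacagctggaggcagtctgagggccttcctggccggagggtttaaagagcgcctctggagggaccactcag
Ankrd37 promoter (chr8:45999801-46000100, - strand): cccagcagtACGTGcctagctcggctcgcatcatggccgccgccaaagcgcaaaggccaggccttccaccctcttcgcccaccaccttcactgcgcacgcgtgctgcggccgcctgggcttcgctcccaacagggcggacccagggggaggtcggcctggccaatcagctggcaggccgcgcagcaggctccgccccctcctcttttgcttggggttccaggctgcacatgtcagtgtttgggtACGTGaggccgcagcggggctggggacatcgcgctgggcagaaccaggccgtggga
Ppp1r3c promoter (chr19:36736555-36736854, - strand): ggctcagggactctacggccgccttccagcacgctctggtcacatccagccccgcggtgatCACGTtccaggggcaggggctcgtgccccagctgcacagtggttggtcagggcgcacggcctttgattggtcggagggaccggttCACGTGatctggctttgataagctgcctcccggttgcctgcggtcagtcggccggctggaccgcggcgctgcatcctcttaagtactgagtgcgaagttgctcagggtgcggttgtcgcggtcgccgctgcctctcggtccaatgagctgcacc
Ankrd1 promoter (chr19:36119795-36120094, - strand): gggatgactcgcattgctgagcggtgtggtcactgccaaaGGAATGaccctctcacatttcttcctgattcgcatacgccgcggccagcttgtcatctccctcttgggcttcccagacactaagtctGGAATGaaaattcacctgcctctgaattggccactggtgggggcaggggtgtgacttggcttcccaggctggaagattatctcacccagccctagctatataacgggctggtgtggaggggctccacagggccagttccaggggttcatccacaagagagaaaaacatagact

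A single promoter was given for 7451 of the 11625 genes, and both strands were searched. TGATGNAA was found in 4.94% of the promoters of higher genes, 1.57% of those of lower genes and 2.24% of all. ACGTG was found in 27.3%, 17.9% and 25.6%, and GGAATG in 12.99%, 12.9% and 12.3%. Of the E-boxes that TWIST1 dimers bind, CATATG was found in 2.08% of higher, 2.82% of lower and 1.70% of all promoters, and CAGATG in 11.9%, 9.72% and 10.98%. Matches also lay in genes without a call, such as TGATGNAA in Gars and Crabp1, ACGTG in Actn2 and Gbx2, and GGAATG in Mcl1. The shares and the printed examples describe matches of letters and were not tested.

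Immediate early genes, which answer growth factors and stress within minutes, rose in 9 of 18 members and fell in 0, with a median of 0.42. Egr1 read 8.74, 9.52, 8.71 and 9.502 in CM-CKO and 7.24, 7.43, 7.12 and 6.86 in CM-Het, 3.88-fold higher (adjusted p = 5.05e-06), and Ier3 8.67, 8.37, 8.32 and 8.06 against 6.56, 6.20, 5.82 and 6.02, 4.61-fold higher (adjusted p = 2.07e-06). Neither gene had overlapping heads. The phosphatase Dusp1 and the stress gene Gadd45g rose by 0.64 and 0.61 (adjusted p = 0.0023 and 0.0121), and with median scaling neither was called, at 0.50 and 0.47 (adjusted p = 0.0595 and 0.116). Klf6 and the survival gene Mcl1 differed by 0.38 and −0.08 (adjusted p = 0.0861 and 0.743). With CM-CKO 2 and CM-CKO 4 removed 3 of the 18 were called at a median of 0.34, and with the red blood cell mean as a covariate 2, at a median of 0.22.

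Mt1, a metallothionein that binds zinc and is induced by metals and stress, rose in every knockout head, with 13.58, 13.83, 13.24 and 13.76 in CM-CKO and 11.40, 11.27, 11.36 and 11.43 in CM-Het, 4.72-fold higher (adjusted p = 2.21e-07). Of 17 cytosolic heat shock genes 3 changed (17.6%, against 9.91% of all genes). All 3 rose: Hspb1 by 1.05 (adjusted p = 0.00427), Hmox1 by 0.41 (adjusted p = 0.0356, not called in 12 of 29 alternatives) and Hspa1a. Hspa1a, the inducible chaperone of the family, read 5.40, 8.09, 5.65 and 10.79 against 4.52, 4.98, 4.93 and 4.72, so that its difference of 2.70 (adjusted p = 0.0418) was largest in CM-CKO 4 and 2. The call was lost in 18 of 29 alternatives, among them without CM-CKO 2 and without background correction. Without CM-CKO 2 and CM-CKO 4 the difference was 0.74 (adjusted p = 0.00792), and with slide as a fixed block 4.31. Of 15 p53 targets only the cell cycle inhibitor Cdkn1a changed, by 1.08 (adjusted p = 0.00066), while Mdm2 differed by −0.01 (adjusted p = 0.949). Of 26 cell cycle genes 1 was lower (Rrm2, −0.37, not called in 10 of 29 alternatives) and 0 were higher.

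**Figure D3:**
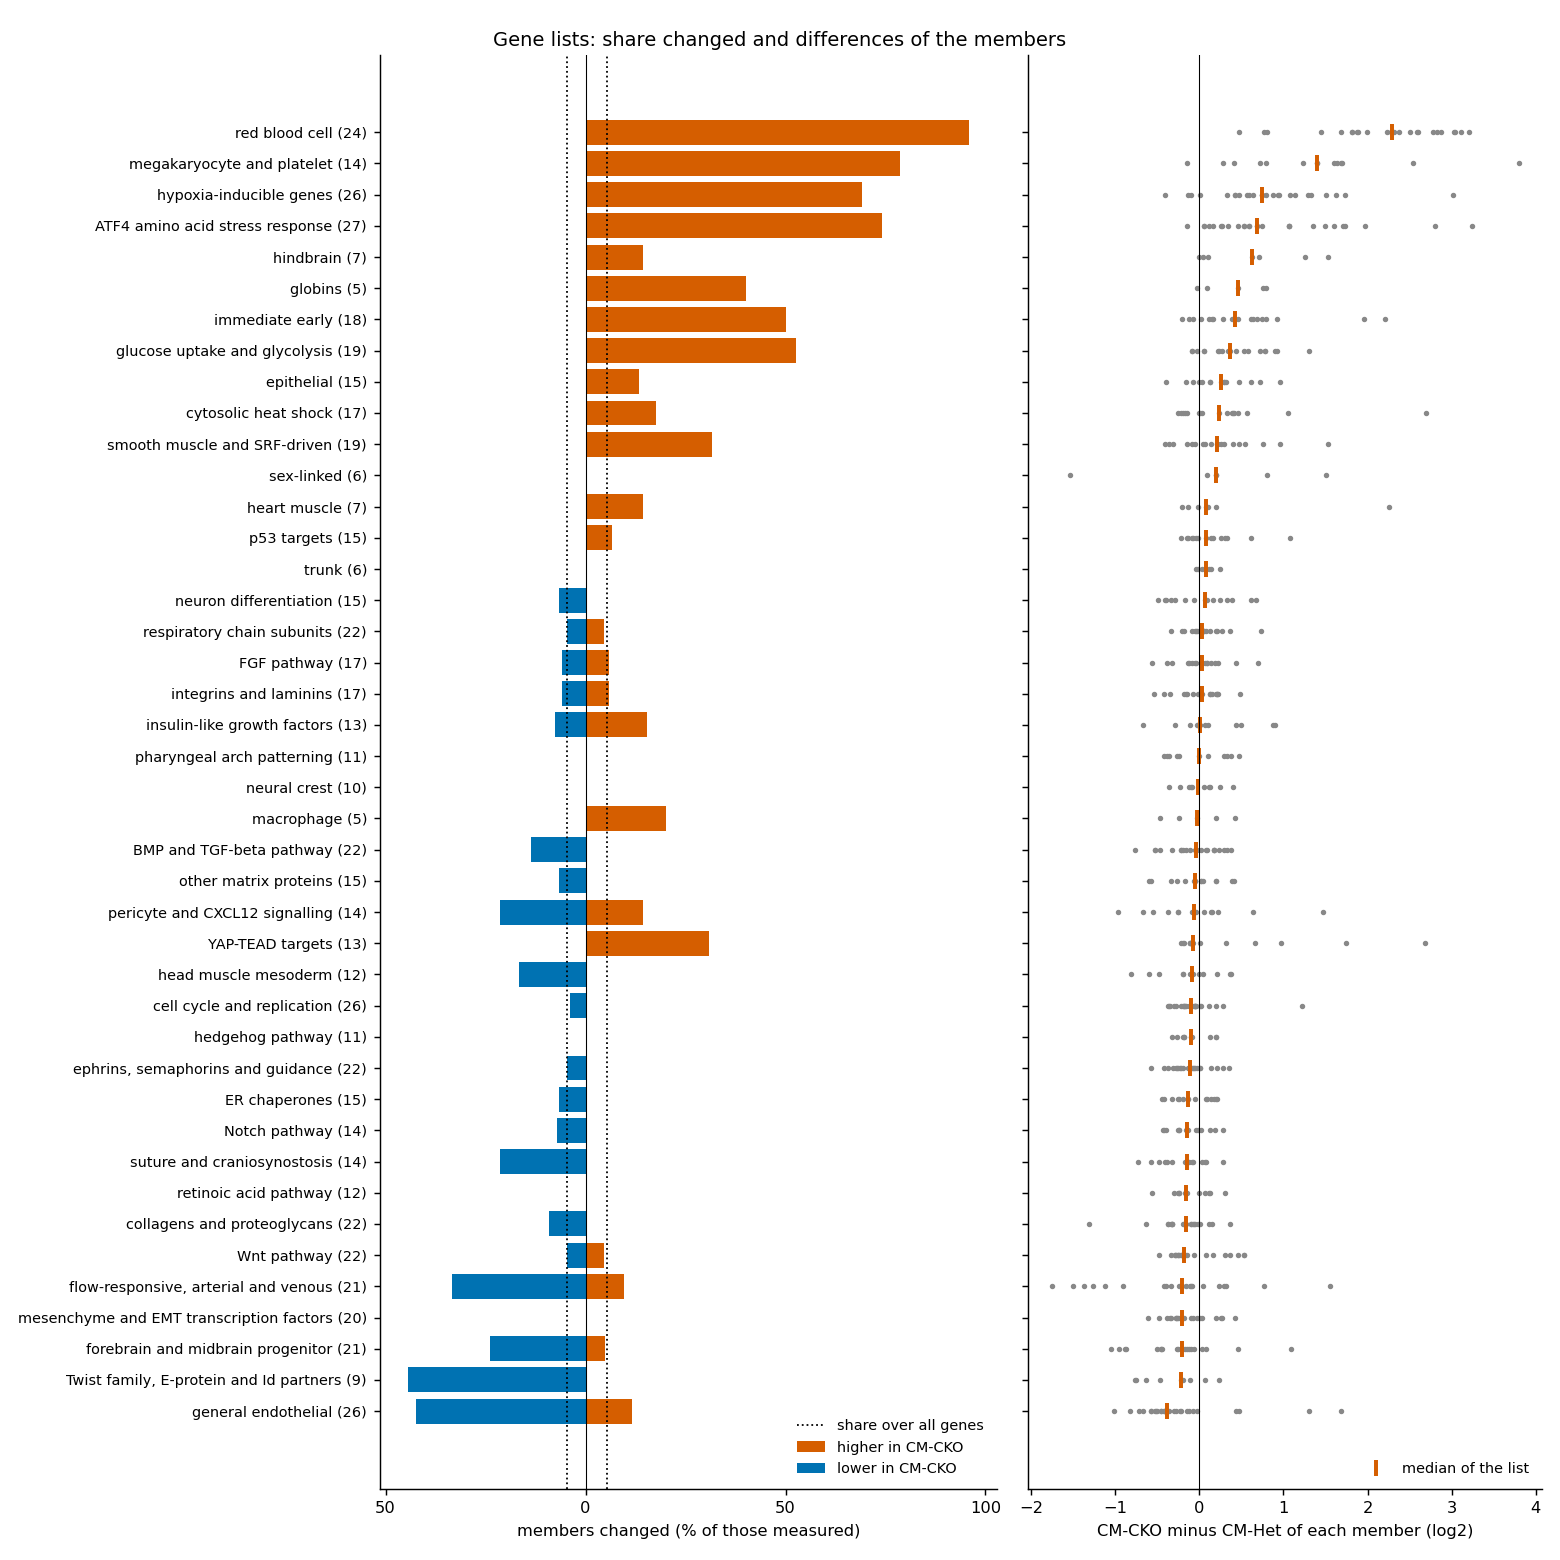
Left, share of the measured members of each gene list (number in brackets) that were higher or lower in CM-CKO, with the shares over all genes, 5.29% and 4.62%, as dotted lines; right, difference of each member (points, log2) and the list median (bar). Blood, hypoxia and ATF4 lists lie to the right, and transcription factors of mesenchyme have 0 of 20 members changed; the 9 genes of the Twist family list include Twist1 itself.

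Of 13 targets of the growth regulators YAP and TEAD 4 rose and 0 fell, and the list median was −0.08. Ankrd1, a stretch-induced ankyrin repeat protein of muscle, read 6.62, 7.42, 7.05 and 7.29 in CM-CKO and 4.55, 4.32, 4.42 and 4.37 in CM-Het, where it was below background on all 4 arrays, so that it was at least 5.18-fold higher (adjusted p = 1.02e-07); its second probe differed by 0.88. The matricellular genes Ccn1 and Ccn2 rose by 1.74 and 0.97 (adjusted p = 3.94e-05 and 0.00514), and Crim1, which binds growth factors of the BMP family, by 0.66 (adjusted p = 0.0116). For Ccn2 the CM-Het heads were themselves spread, 9.44, 10.09, 10.42 and 10.50 against 11.06, 11.42, 10.92 and 10.93 in CM-CKO. A second probe of Crim1 differed by −0.04, and Tead1 and Amotl1 differed by −0.11 and −0.19.

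Lists of mesenchyme and matrix genes, which whole heads measure together with all other tissues, held shares of changed genes below or near the 9.91% of all genes. Of 20 transcription factors of mesenchyme and of epithelial-mesenchymal transition 0 were called, with a median of −0.21 and with Msx1 at −0.26 (adjusted p = 0.251) and the mesenchymal filament gene Vim at −0.03 (adjusted p = 0.925). Lum, a keratan sulfate proteoglycan of the matrix, was the clear exception among matrix genes: it read 7.43, 7.35, 7.37 and 7.13 in CM-CKO and 8.68, 8.66, 8.57 and 8.60 in CM-Het, 2.47-fold lower, a log2 difference of −1.31 (SE 0.09, adjusted p = 5.9e-07), and its other probe differed by −0.72. Col6a1 fell by 0.63 (adjusted p = 0.0156), but was not called with slide as a fixed block (−0.35, adjusted p = 0.241), and the other 20 of 22 collagens and proteoglycans were not called, such as Col18a1 (0.0042) and Gpc3 (0.14). Of 15 other matrix genes Mfap4 fell by 0.59 (adjusted p = 0.0391), and of 17 integrins and laminins Itga3 rose by 0.48 and Lamb2 fell by 0.54. The calls of Mfap4 and Lamb2 were each lost in 16 of 29 alternatives. Itga3 was 0.30 with slide as a fixed block (adjusted p = 0.137) and 0.17 within slide 3, and was not called with median scaling (0.36, adjusted p = 0.168).

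Of 14 genes tied to skull sutures 3 were lower and 0 higher (21.4% changed, against 9.91% of all genes). The ephrin Efna4 read 8.11, 8.01, 8.01 and 8.21 in CM-CKO and 8.91, 8.55, 8.52 and 8.66 in CM-Het, with a log2 difference of −0.57 (SE 0.10, adjusted p = 0.00277), and Rab23, mutated in a human craniosynostosis, read 6.56, 6.72, 6.81 and 6.36 against 7.28, 7.31, 7.46 and 7.32, with a log2 difference of −0.73 (SE 0.15, adjusted p = 0.00821). Heads were separate for both. Alpl, the bone phosphatase, fell by 0.48 (adjusted p = 0.0361), but was not called in 13 of 29 alternatives, among them slide as a fixed block (−0.28, adjusted p = 0.351), slide as a random block and the replicate block, while Gli3 and Fgfr2 differed by −0.33 and 0.03 (adjusted p = 0.0747 and 0.882). Of 12 genes of the head muscle mesoderm list 2 changed, 16.7% against 9.91% of all genes. Lhx2 and Eya1 fell by 0.81 and 0.60 (adjusted p = 0.00099 and 0.00985), and whole heads do not show in which tissue. Tbx1 differed by 0.36 (adjusted p = 0.111) and Isl1 by 0.21. In the arch and neural crest lists 0 of 11 and 0 of 10 were called, with Sox9 at −0.36 (adjusted p = 0.0681) and Dlx3 at 0.10.

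In the early brain, a tissue outside the Mesp1 lineage, 5 of 21 measured genes were lower. Fezf1, a transcription factor of the rostral forebrain, read 8.96, 9.001, 9.04 and 8.60 in CM-CKO and 9.94, 9.91, 9.87 and 10.06 in CM-Het, 2.07-fold lower, a log2 difference of −1.05 (SE 0.10, adjusted p = 1.73e-05). Sox3, of neural progenitors, read 5.66, 5.76, 5.88 and 5.50 against 6.67, 6.65, 6.57 and 6.72, a log2 difference of −0.95 (SE 0.14, adjusted p = 0.000642). The eye and hypothalamus regulator Rax fell by 0.88 and Nr2e1, of forebrain progenitors, by 0.87, both with separate heads. The other changed members, chosen after their values were seen, were Zic2, mutated in human holoprosencephaly, which fell by 0.51, and Lmx1a, of the dorsal midline, which rose by 1.09. Otx2 and Otx1, which the whole fore- and midbrain expresses, differed by −0.14 and −0.27 (adjusted p = 0.398 and 0.114). With the red blood cell mean as a covariate 1 member, Fezf1, was called, and the list median was 0.03 against −0.21.

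Behind the midbrain, 1 of 7 hindbrain genes was called (14.3%, against 9.91% of all genes) and 6 of 7 differences were above 0, with a median of 0.62. Relative to the CM-Het mean the list means were 0.98, 0.47, 0.92 and 0.07 in CM-CKO 1 to 4, −0.14 to 0.13 in CM-Het, 0.40 to 0.86 in Het and 0.45 to 0.80 in Control, so that all heads but CM-CKO 4 lay above the CM-Het heads, and Het differed from Control by a median of 0.02. Hoxb2 rose by 1.53 (adjusted p = 0.0124) with overlapping and widely spread heads, 7.25, 6.399, 7.45 and 5.40 in CM-CKO against 5.24, 4.98, 5.52 and 4.62 in CM-Het. Its level was −0.33 in CM-CKO relative to Het, and the call was lost with slide as a fixed block (0.89, adjusted p = 0.182) but not as a random block (1.36, adjusted p = 0.0278), and within slide 3 it was 0.33. Irx3 and Gbx2 differed by 0.05 and 0.10. Of 15 genes of neuron differentiation 1 fell (Crmp1, −0.49, −0.26 with slide as a fixed block, with no call in 16 of 29 alternatives), and of 22 guidance genes 1 fell (Efna4, above).

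In the signalling lists the share of changed genes lay near that of all genes (9.91%) for FGF (11.8%), Wnt (9.09%), BMP and TGF-beta (13.6%) and Notch (7.14%), and was 23.1% for the insulin-like growth factor system. In the FGF list the ligand Fgf15 rose by 0.70 and the target Etv5 fell by 0.33 out of 17 genes, where Fgf15 was not called with slide as a fixed block (0.41, adjusted p = 0.125), and in the Wnt list Wnt3a rose by 0.53 and the antagonist Sfrp1 fell by 0.47 out of 22. The calls of Wnt3a and Etv5 were each lost in 16 of 29 alternatives, and Wnt3a was 0.27 with slide as a fixed block. In the BMP and TGF-beta list Tgfbi fell by 0.53 (adjusted p = 0.0246, not called in 10 of 29 alternatives) beside Id2 and Id3, in the Notch list the target Hey1 fell by 0.39 (adjusted p = 0.0335, not called in 11), and in the hedgehog and retinoic acid lists 0 of 11 and 0 of 12 were called. Of 13 genes of the insulin-like growth factor system Igfbp3, a binding protein, rose by 0.88 (adjusted p = 0.000212), as did the adaptor Irs2 with 0.89 (adjusted p = 0.0202), which was 0.56 and not called with slide as a fixed block (adjusted p = 0.207). The ligand Igf1 was lower, at −0.67 (adjusted p = 0.0124), and Igf2 differed by −0.02. Of 15 epithelial genes 2 changed (13.3%, against 9.91% of all genes). These were the keratins Krt19 and Krt14, which rose by 0.96 and 0.72 (adjusted p = 0.00275 and 0.0238).

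The rest of the 12 largest falls lay outside the lists. Txnip, an inhibitor of thioredoxin that responds to glucose, read 7.95, 7.24, 7.58 and 7.49 in CM-CKO and 8.60, 8.60, 8.86 and 9.06 in CM-Het, 2.32-fold lower (adjusted p = 0.000984). The proteasome subunit Psmb1 read 11.60, 10.54, 11.93 and 10.51 against 12.38, 12.29, 12.50 and 12.41 and the Rap exchange factor Rapgef6 6.94, 6.06, 6.89 and 5.33 against 7.46, 7.61, 7.64 and 7.60. Both were lowest in CM-CKO 4 and 2, the heads with the most red cell RNA, and their differences of −1.25 and −1.27 were 0.044 and 0.0073 with the red blood cell mean as a covariate. Of 4 Rapgef6 probes 2 differed in the opposite direction. The glutamine transporter Slc38a8 fell by 1.12, the carbonyl reductase Cbr3 by 1.07 (second probe −0.21), and Fam162b was at least 1.98-fold lower because it was below background in all CM-CKO heads. For the probes used for Cbr3 and Rapgef6 the authors' log2 value table did not equal the quantile-normalized signals. Neither gene lost its call with that table.

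Genes near the exchanged alleles can differ by strain haplotype as well as by regulation. Within 10 Mb of Twist1, 7 of 45 measured genes changed: Twist1, Id2, Trappc12 and Rrm2 were lower, and Sostdc1 (0.72), Acp1 (0.71) and Fam110c (1.27) were higher, of which Trappc12 and Fam110c were named after their values were seen. Id2 differed by −0.75 between Het and Control too, as Twist1 did by −0.95, whereas Sostdc1 and Acp1 differed by −0.23 and −0.08 there. With slide as a fixed block Sostdc1 was 0.42 and Klhl25, below, −0.25, both without a call (adjusted p = 0.0992 and 0.254). Within the same distance of Mesp1, whose Cre copy both genotypes carried, 5 of 69 changed, with Tm6sf1, Klhl25, Hapln3 and Sema4b (the last named after its value was seen) lower and Homer2 higher. The share of changed genes was 15.6% around Twist1 and 7.25% around Mesp1, against 9.91% overall.

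The exchange of the wild-type for the deleted Twist1 allele was also made in heads without Cre, and these share no array with the comparison above. Het and Control differed for 0 genes (0%) in the limma fit, and 636 genes had an unadjusted p under 0.05. CM-Het and Control differed for 0 genes as well (413 unadjusted). Twist1 in Het was 51.6% of its Control level, with an exact 2-sided permutation p of 0.0286, the smallest that 35 splits can give. It too was not called in the limma fit, so 0 calls between Het and Control does not mean that no gene differed. The interaction, which tests whether the difference with Cre differs from that without, was called for 124 genes (1.07%), 78 more positive and 46 more negative with Cre, and 1727 had an unadjusted p under 0.05. Leaving out single heads gave 57 to 330 genes. Of the 124 genes 122 were among the 1152 that changed with Cre, which is 98.4% of the former and 10.6% of the latter, so for the rest of the changed genes a difference between the 2 settings was not shown.

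Ankrd1 was called in the interaction (adjusted p = 1.44e-05), but it was below background on all CM-Het and Het arrays, so its size with Cre is known only as the bound given above. Actc1 (2.25 with, −0.01 without), Ppp1r3c (1.73 and 0.10), Mt1 (2.24 and 0.12), Ier3 (2.21 and −0.42) and Chac1 (3.24 and 0.16) were called as well, with adjusted p between 7.48e-05 and 0.000129. Gja4 (0.25 without Cre), Klf2 (−0.04), Lum (−0.14), Fezf1 (−0.08) and Slc4a1 (−0.13) were also called. Twist1 and Id2 were not, with interaction adjusted p of 0.693 and 0.99. Median differences of the red blood cell, ATF4 and hypoxia lists between Het and Control were −0.11, 0.02 and −0.0019, and 9, 8 and 10 of their members had an interaction.

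Against Het heads, which share the germline alleles but lack Cre, the same CM-CKO arrays gave 985 changed genes (8.47%), 482 higher (4.15%) and 503 lower (4.33%). Because the CM-CKO heads are shared, the values are given side by side only: Chac1 was 3.37 against Het and 3.24 against CM-Het, Bhlhe40 2.78 and 3.01, Slc4a1 2.88 and 3.03, Gja4 −1.77 and −1.76, Lum −1.28 and −1.31, and Fezf1 −0.88 and −1.05. Twist1 was 0.19 against Het and −0.75 against CM-Het.

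**Figure D4:**
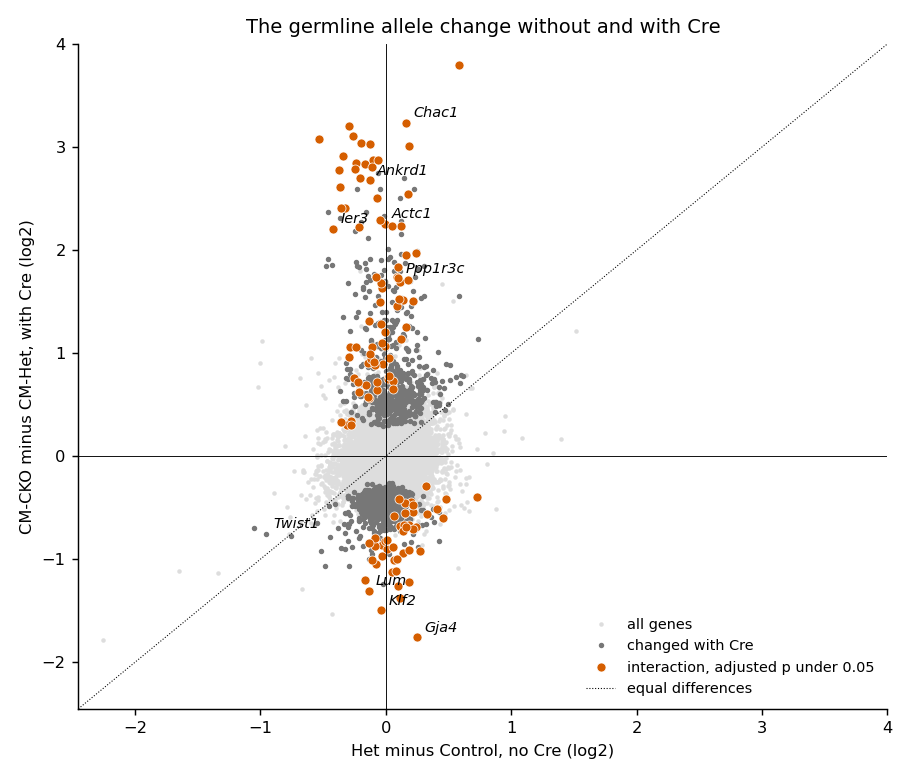
Difference of each gene between deleted and wild-type germline allele with Cre (CM-CKO minus CM-Het, log2) against the same without Cre (Het minus Control, log2); orange marks the 124 genes with an interaction and the dotted line equal differences. The labelled orange genes lie between −0.42 and 0.25 on the horizontal axis, and Twist1 lies near the dotted line.

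The knockout heads were less alike than the heterozygous ones. The SD over 4 heads was larger in CM-CKO for 8039 of 11625 genes (69.2%), with a median SD of 0.187 against 0.130. Pairs of CM-CKO arrays correlated at 0.976 to 0.992 across genes and pairs of CM-Het arrays at 0.992 to 0.994. On the first principal component, with 37.3% of the variance, CM-CKO 1 to 4 scored 16.6, 33.6, 9.58 and 45.2, and the 11 other arrays −11.1 to −7.57. On the second, with 13.5%, the slide 1 arrays CM-CKO 1, 2 and 3 and Het 1 scored −20.4, −5.90, −13.0 and −19.5. Arrays of slides 2 and 3 scored −3.19 to 19.6 there, with CM-CKO 4 (slide 3) highest. How far slide adds to the spread among CM-CKO heads was not tested. Among the 615 higher genes the largest departure from the CM-Het mean was in CM-CKO 4 for 317 and in CM-CKO 2 for 148, and the smallest was in CM-CKO 3 for 329. Among the 537 lower genes CM-CKO 4 was farthest for 268 and CM-CKO 3 nearest for 222.

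This order of heads, CM-CKO 3 nearest to CM-Het, then 1, 2 and 4, was that of the red blood cell list, whose means were 1.58, 2.76, 0.90 and 3.48 against −0.26 to 0.14 in CM-Het. Of the 44 lists, the 2 lists by position included, 5 had means that rose in the order CM-CKO 3, 1, 2 and 4. These were the red blood cell list itself, ATF4 targets, platelet, glycolysis and pericyte genes. In the pericyte list the means were below the CM-Het mean, so CM-CKO 3 (−0.083) was farthest from it. In 11 lists the means fell in that order, among them flow, forebrain, suture, collagen, Notch and Wnt genes. The flow means were below the CM-Het mean, so CM-CKO 3 was again nearest there. Hypoxia genes (0.79, 0.96, 0.84 and 0.68) and glycolysis genes (0.42, 0.44, 0.40 and 0.48) differed less between knockout heads than red blood cell genes. The SDs of these list means were 0.115, 0.033 and 1.16. With the red blood cell mean as a covariate in the fit of all genes, 142 genes were called, among them 70 of the 1152, and 978 of the 1152 kept their direction. That mean did not overlap between the 2 genotypes, so calls lost with it cannot tell red cell content from genotype. Without CM-CKO 2 and CM-CKO 4, 519 genes were called, 406 of them among the 1152. Of the 107 changed named genes 20 kept their call in all 29 alternatives tested: Ankrd1, Actc1, Chac1, Bhlhe40, Ppp1r3c, Mt1, Ier3, Egr1, Ccn1, Stc2, Vldlr, Ddit4, Ankrd37, P4ha2, Tagln and Igfbp3 (0.57 within slide 3) among the rises, and Gja4, Klf2, Lum and Fezf1 among the falls.

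**Figure D5:**
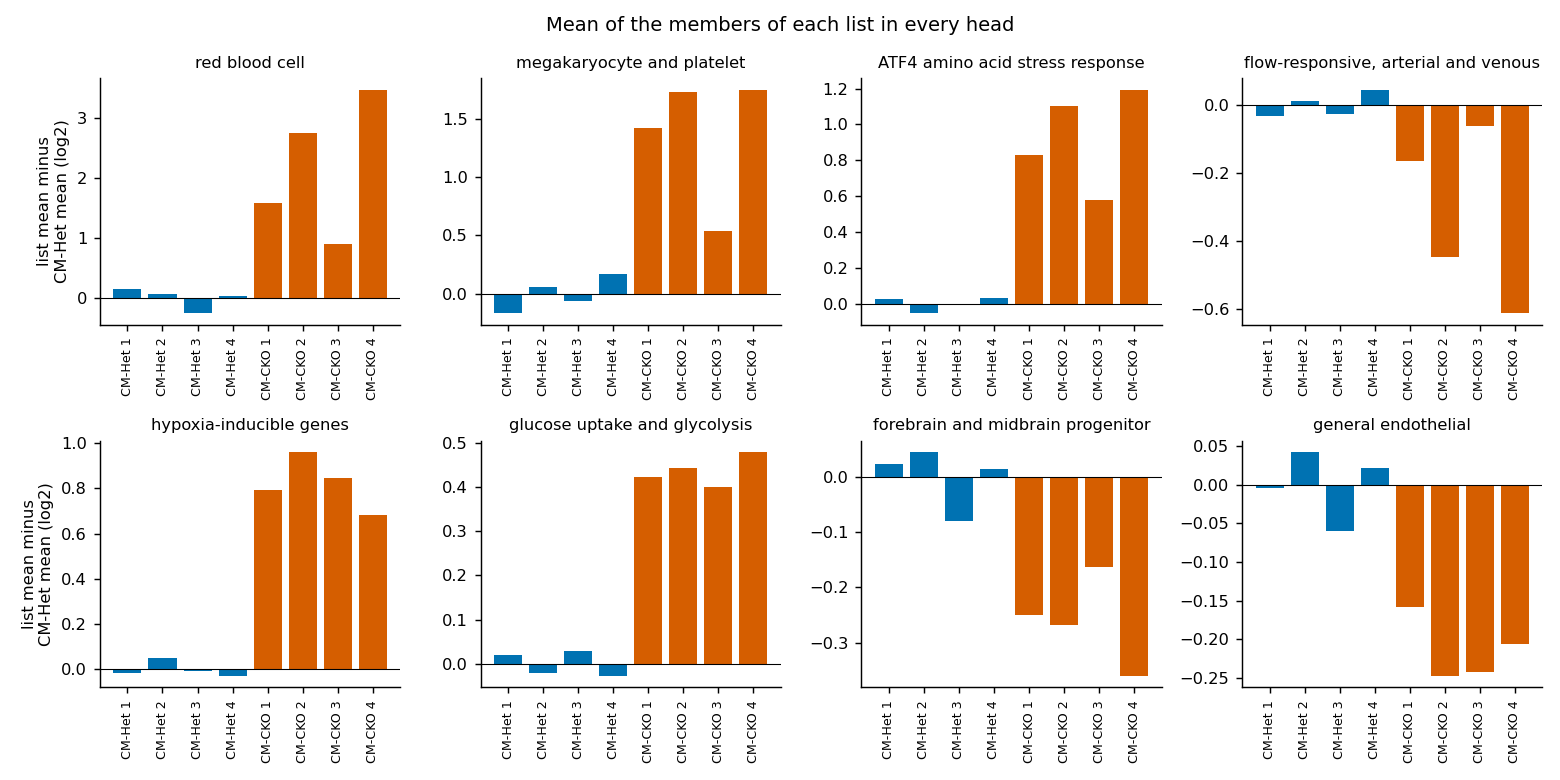
Mean of the members of 8 gene lists in each head, relative to the CM-Het mean (log2). Red blood cell, platelet and ATF4 means are lowest in CM-CKO 3 among the knockout heads, whereas hypoxia and glycolysis means differ less between the 4.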

How the data were processed

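RNA of 15 mouse heads was read on Illumina bead arrays of 1 colour. The authors deposited bead signal intensity per probe, not background-subtracted, and a detection p-value column per array, per the file headers; the software was not given in the sources used here. Between 74.4% and 75.6% of each array's detection p-values stood on another row than their signal, so each was re-attached by the rank of its signal. That column of Het 1 held the log2 values of the authors' value table instead and was rebuilt from the signals. The deposited log2 value table equalled quantile-normalized signals within 0.02 for 42477 probes and not for 2804, and it served as an alternative.

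Background was removed with the normexp model of limma 3.58.1 (R 4.3.3; offset 16), arrays were quantile-normalized and log2 was taken. Probes with 1 gene name and a detection p under 0.05 on at least 3 arrays were kept (21869), and the brightest stood for its gene (11625 genes). All 15 arrays entered 1 limma fit with genotype alone, and p-values were adjusted by Benjamini-Hochberg over all genes with a threshold of 0.05. A gene below background in a whole group is given as a bound against the lowest detected signal. The array number limits precision. Exact 2-sided permutation tests were used for Twist1. Figures and summaries used Python 3.11.15, pandas 2.3.3 and matplotlib 3.10.9.

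Named genes were Twist1, Twist2, Mesp1 and Mesp2; the 12 largest rises and falls with separate heads; up to 4 changed members of each list by adjusted p with its 2 brightest unchanged members; up to 4 changed genes near Twist1 and Mesp1; and the top 6 of the interaction. The 42 lists and the genes in them were chosen with earlier results of these data known. Alternatives covered background, scaling, filters, probes, slide, replicate number, blood content, the test and single heads.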

Additional observations from a re-analysis of the deposited data

Results flagged for a closer look

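In 21 of 462 groups of 4 heads (4.55%) 1 head stood apart, with a gap to the next head above the critical share of the group's range (Dixon's test). By chance alone this happens in about 1 of 20. Among CM-CKO heads these were, with the share of the range, Pf4 in CM-CKO 3 (low, 0.904), Gars in CM-CKO 3 (low, 0.937), P4ha2 in CM-CKO 2 (low, 0.916), Car12 in CM-CKO 4 (low, 0.907), Pdgfrb in CM-CKO 1 (high, 0.847), Itga3 in CM-CKO 4 (low, 0.8998), Gli3 in CM-CKO 4 (low, 0.852), Dusp6 in CM-CKO 1 (high, 0.855), Klf6 in CM-CKO 4 (high, 0.913), Hspb1 in CM-CKO 4 (high, 0.841), Eif2s3y in CM-CKO 2 (low, 0.873) and Sostdc1 in CM-CKO 4 (low, 0.916). Eif2s3y is Y-linked, and both genotypes held both sexes. Among CM-Het heads they were Nos3 in CM-Het 2 (high, 0.903), Car12 in CM-Het 3 (high, 0.851), Hbb-y in CM-Het 3 (low, 0.851), Acta2 in CM-Het 3 (high, 0.8294), Itga3 in CM-Het 1 (low, 0.837), Dusp6 in CM-Het 1 (low, 0.886) and Mdm2 in CM-Het 4 (high, 0.836). The means of the smooth muscle and of the guidance list were high in CM-Het 3, with shares of 0.843 and 0.888.

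For 48 named genes the difference between deleted and wild-type germline allele was not the same with and without Cre, by the interaction test (limma, adjusted p under 0.05). The difference with Cre minus that without, in log2, was positive for Pf4 (3.22), Alas2 (3.49), Slc38a5 (3.37), Ncf4 (3.61), Kel (3.23), Slc4a1 (3.16), Tmod1 (3.25), Uba7 (2.94), Sptb (2.97), Cited4 (3.08), Mgst3 (2.57), Gp5 (1.57) and Tubb1 (2.36). Positive values were also found for Chac1 (3.07), Bhlhe40 (2.83), Vldlr (1.54), Stc2 (1.73), Ddit4 (1.82), Ankrd37 (1.66), P4ha2 (1.06), Aldoc (0.92), Tagln (1.42), Acta2 (1.26), Myl9 (1.01), Actc1 (2.26), Ier3 (2.63), Egr1 (1.80), Ankrd1 (2.81), Ccn1 (1.65), Sostdc1 (0.94), Ppp1r3c (1.63) and Mt1 (2.11); that of Ankrd1 is a fitted value against groups below background and gives no size. It was negative for Gja4 (−2.004), Klf2 (−1.46), Aplnr (−1.49), Gja5 (−1.36), Fam162b (−1.03), Nos3 (−1.17), Sox7 (−0.90), Emcn (−0.82) and Tek (−0.86), where Fam162b was below background in CM-CKO. Negative values were also found for Lum (−1.17), Txnip (−1.40), Slc38a8 (−1.20), Cygb (−0.94), Pdgfra (−0.71), Lhx2 (−0.82) and Fezf1 (−0.97).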

How the results depend on the processing

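All 1152 changed genes kept their direction with slide as a fixed block, with no background correction, with median scaling and without any single head. In counts, 399 genes changed with replicate block and slide together, 142 with the red blood cell mean as a covariate, 519 without CM-CKO 2 and CM-CKO 4 (chosen after seeing the data), and 550 to 1256 without single heads. Slide as a random block gave 1008, the 8 arrays alone 851 and the replicate block 1129, of which 1008 were among the 1152. Departures from the group mean correlated at −0.04 to 0.03 in same-numbered heads and at −0.13 to 0.13 over all pairs. Same-numbered heads thus did not stand out, which cannot tell whether they shared a litter or preparation. The Twist1 difference was −0.52 (adjusted p = 0.0510) with slide as a fixed block, −0.59 within slide 3, −0.40 (0.296) with replicate block and slide, −0.80 (0.129) with the covariate, and −0.81 to −0.68 without single heads. The interaction gave 263 genes with slide, 23 with the covariate and 57 to 330 without single heads; median scaling moved its median over all genes from −0.04 to −0.21. Het against Control gave 1 gene with trend and robust options, and 0 to 1 without single heads. Within slide 3, with 1 CM-CKO head, values were taken without a test. None of the 107 changed named genes had the other sign there, but the same heads entered their calls, so this is no separate check. Igfbp3, Efna4 and Ccn2 were 0.57, −0.38 and 0.46 within slide 3. Of the 80 named genes without a call 57 had the other sign in some alternative. Hbb-bh1, not called on its brightest probe, was called with the other sign on the mean of its probes (0.86). Among called genes, signs turned with the covariate for Rapgef6 (0.0073), Psmb1 (0.044), Id3 (0.12), Hey1 (0.054) and Hspa1a (−1.54). The cause was not tested. Globin signals near the top of the range limit what they can show.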

Other observations

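Of the 1152 changed genes 971 were in none of the lists. Some of them, chosen after their values were seen, are given here as values only. Acta1, skeletal muscle actin, rose by 2.23 (SE 0.18, adjusted p = 1.53e-06), and Mt2, the second metallothionein gene of the cluster of Mt1, by 2.59 (adjusted p = 0.000974). Stc1, a secreted glycoprotein related to that of Stc2, rose by 1.84 (adjusted p = 3.7e-05). Itgb6, an integrin subunit of epithelia, rose by 1.46 (adjusted p = 2.4e-06) and the matrix protease gene Mmp9 by 1.51 (adjusted p = 0.000394). Gas6, a ligand of TAM receptors, differed by −0.999 (adjusted p = 7.87e-05), and Flrt2, a transmembrane protein of cell adhesion and guidance, by −0.94 (adjusted p = 0.000368). Changed genes that were detected on no CM-Het array numbered 45, and those detected on no CM-CKO array 15.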
